A study of Mus musculus with 32 samples.

Results

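Chronic social defeat stress (CSDS) was compared with no stress in orbitofrontal cortex (OFC) astrocytes that carried the control virus of the Zbtb7a knockdown experiment. The members described here are the open chromatin regions listed for one of these 2 groups and not for the other on chromosomes 1 to 19. They numbered 1773 opened regions, listed under GFP CSDS and absent from GFP control, and 717 closed regions, listed under GFP control and absent from GFP CSDS. Together these 2490 regions came from the 6370 regions of both lists, and the 6 lists of the series held 16174 peaks in all. Members were chosen by position alone. Both lists were first merged across gaps of up to 1177 bp and merged regions narrower than 1174 bp were left out, which are the larger of the 2 lists' smallest gaps and the larger of their narrowest peaks. A region was then opened or closed when it did not share 1 bp with any region of the other list.

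GFP control and GFP CSDS consisted of 5 samples each, and each sample was a pool of 3 mice. All were male C57BL/6J mice, obtained at 6 to 12 weeks of age, that had received bilateral OFC injections of an AAV6 virus driven by the astrocyte promoter GFAP and carrying a non-targeting miRNA with GFP (mirNeg), so that the controls were also operated and virally transduced. GFP CSDS mice went through 10 days of defeat by aggressive CD1 mice with sensory contact in between, and GFP control mice were housed beside another C57BL/6J mouse. Astrocytes were isolated with magnetic beads against the surface antigen ACSA-2. The other lists used below come from mice with the Zbtb7a knockdown virus (Zbt-KD control and Zbt-KD CSDS, 5 samples each) and from a second experiment with its own GFP virus and a ZBTB7A overexpression virus (OE experiment GFP and ZBT-OE, 6 samples each), for which the labels give no stress state and the study's text names subthreshold social defeat in both groups.

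ATAC-seq uses the Tn5 transposase, which inserts sequencing adapters where DNA is not covered by nucleosomes, so that promoters and enhancers in use give local peaks. Astrocytes clear glutamate and potassium around synapses, and they respond to glucocorticoids and to inflammatory signals. CSDS is a model in which repeated subordination by a larger mouse alters social behaviour in part of the defeated animals.

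One peak list was deposited for each group, and it gives no value for single samples. No spread between replicates could therefore be computed, no p-value is given for any difference between the groups, and read depth is unknown. Intervals are 95% intervals over regions and cover counting error only, and neighbouring regions at one gene share their source and are not replicates. In pooled samples, a region absent from a list can reflect fewer cells in which it is open or less opening per cell, and these cannot be told apart.

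The 2 lists differed in how finely peaks were drawn, and the peak calling settings that the study states do not account for it. The 5416 peaks of GFP control were as narrow as 687 bp, with a median of 1976.5 bp, and the 3410 peaks of GFP CSDS were no narrower than 1174 bp, with a median of 4040 bp. After merging, 4022 GFP control regions were left, of which 1057 were narrower than the limit, and 2965 remained. GFP CSDS gave 3405 regions and lost none to the limit. The 2 lists covered similar lengths, at 169.1 Mb for GFP CSDS and 144.3 Mb for GFP control, with 134.8 Mb in both.

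Opened regions made up 52.1% (50.4 to 53.7) of the GFP CSDS regions, and closed regions made up 24.2% (22.7 to 25.8) of the GFP control regions. By length these shares were lower, because opened regions covered 14.6 Mb, or 8.62% of the GFP CSDS length, and closed regions covered 3.65 Mb, or 2.53% of the GFP control length. Shared regions, 1632 in GFP CSDS and 2248 in GFP control, also differed at their edges, with 19.7 Mb listed for GFP CSDS alone and 5.93 Mb for GFP control alone. Opened regions therefore outnumbered closed ones in these lists, but how far depended on the scale of comparison. With both lists as deposited, 1642 GFP CSDS peaks had no overlap in GFP control and 1580 GFP control peaks had none in GFP CSDS.

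The width limit bears on some opened regions directly. Of the 1773 opened regions, 134 overlapped a GFP control region that had been left out as too narrow, and 1639 overlapped no GFP control peak at all. Such narrow control regions were found under 6 of the 10 opened regions with the highest fold enrichment and under 3 of the 11 annotated to a promoter, and these regions were thus opened by the width limit and not by the lack of a control peak. All 717 closed regions lacked any GFP CSDS peak. The closest misses of the rule were an opened region 565 bp and a closed region 225 bp from the other list. At the other side of the rule, the smallest overlaps that made a region shared were 105 bp for GFP CSDS and 42 bp for GFP control. The widest control region left out measured 1172 bp.

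The opened regions with the highest fold enrichment (the peak caller's ratio of signal to background, which can be compared only within a list) included members of the LINE-1 family. LINE-1 elements are retrotransposons that copy themselves through RNA, and the mouse subfamilies named L1Md carry a promoter of repeated, CG-rich units at their 5′ end. Regions centred on L1Md_T elements near Npsr1, the neuropeptide S receptor, and near the predicted gene Gm3428 had fold enrichments of 2.93 and 2.81, and a region centred on an L1Md_F element near Gm11487 had 2.76. All 3 regions were wholly repeat-masked, with GC contents of 64.4%, 66.2% and 66.9% against 41.9% for chromosomes 1 to 19. The following stretches of 240 bases from the mm10 (GRCm38) reference are shown because they make the shared, CG-rich content of these regions visible. The Npsr1 stretch is the centre of its region (chr9:24147942-24148181, plus strand, inside an intron of the gene), and the others are the best-matching stretches of the Gm3428 region (chr9:35886075-35886314, minus strand, intergenic) and the Gm11487 region (chr4:73294820-73295059, plus strand, intergenic). Capitals mark CG dinucleotides, of which the stretches held 17, 16 and 19.
Npsr1 region: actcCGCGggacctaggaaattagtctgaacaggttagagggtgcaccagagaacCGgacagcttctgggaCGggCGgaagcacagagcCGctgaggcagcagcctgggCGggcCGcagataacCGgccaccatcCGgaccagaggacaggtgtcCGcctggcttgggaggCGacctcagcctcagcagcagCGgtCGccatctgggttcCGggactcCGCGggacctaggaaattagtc
Gm3428 region: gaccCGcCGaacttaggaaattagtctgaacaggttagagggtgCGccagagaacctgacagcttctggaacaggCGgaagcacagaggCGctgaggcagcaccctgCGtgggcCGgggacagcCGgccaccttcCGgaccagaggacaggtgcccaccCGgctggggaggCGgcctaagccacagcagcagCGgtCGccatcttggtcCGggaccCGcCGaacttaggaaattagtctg
Gm11487 region: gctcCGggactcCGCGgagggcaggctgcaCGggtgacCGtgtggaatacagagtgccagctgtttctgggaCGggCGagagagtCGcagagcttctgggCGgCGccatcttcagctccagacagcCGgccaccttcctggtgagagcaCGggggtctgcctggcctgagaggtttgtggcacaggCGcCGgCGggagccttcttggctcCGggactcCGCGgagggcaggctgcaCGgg

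In an alignment to the Npsr1 stretch, the Gm3428 region was identical at 208 of 237 aligned columns (87.8%) and the Gm11487 region at 150 of 228 (65.8%). Of the 31-base words of the Gm3428 region, 31 of 472 were also in the Npsr1 region, and none of 263 words of the Gm11487 region was. Each of the 20 words of 31 bases sampled from each of these 3 regions occurred more than once in the genome. The deposited peaks rest on uniquely mapped reads only. The narrow GFP control regions under these 3 elements had fold enrichments of 1.75 near Npsr1, 2.31 near Gm3428 and 2.16 near Gm11487, over 874, 771 and 1143 bp. Among all opened regions, 22 had a GC content over 60% and 14 of these were centred on an L1Md element, while none of the 7 such closed regions was. The same was found in shared regions, at 15 of 26 in GFP CSDS and 19 of 29 in GFP control, and 11 of the 22 opened regions with such a GC content held a narrow GFP control region. L1Md elements overall were about as frequent in both classes, at 7.05% (5.95 to 8.34) of opened and 7.39% (5.7 to 9.54) of closed regions. Among shared regions they made up 9.93% (8.57 to 11.5) in GFP CSDS and 8.59% (7.5 to 9.82) in GFP control.

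The highest fold enrichment of an opened region was 3.12, at an LTR element 24.8 kb from Ly6c2, a gene of the Ly6 surface antigen family. A narrow GFP control region of 740 bp there had a fold enrichment of 3.36. The other opened regions among the first 10 lay near 1700034K08Rik (2.79, 56 kb wide), Fam118b (2.65, 91.6 kb wide), 4930579K19Rik (2.65, 122.2 kb wide), Gm5458 (2.63, a satellite repeat) and Mir6546 (2 regions at 2.63). The range over all opened regions was 1.42 to 3.12 with a median of 1.64, and 59 reached 2. Closed regions ranged from 1.47 to 3.27 with a median of 1.68, and 19 reached 2. The medians of the shared regions were close to these, at 1.76 in GFP CSDS and 1.75 in GFP control, while their highest values were 12 and 17.7, and 501 and 507 of them reached 2.

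Opened and closed regions were narrower than shared ones, which the rule favours, since a wider region more easily shares 1 bp with the other list. The median width was 2765 bp (2628 to 2928) for opened regions and 2397 bp (2227 to 2622) for closed regions, against 9380.5 bp (8075 to 10689) and 5518.5 bp (5030 to 6116) for shared regions of GFP CSDS and GFP control. The opened-minus-closed difference of 368 bp (104.6 to 603.5) depended on the setting. It was 1320.5 bp with the lists as deposited, 2831.5 bp with the upper 50% of each list, 9223.5 bp at the scale of the coarsest knockdown list and −106 bp (−470 to 280.5) when equal numbers of the strongest peaks were taken from each. A few opened regions were domains rather than peaks. Regions wider than 50 kb numbered 53 of the opened and held 37.1% of the opened length, and 5 of the closed with 12.5% of the closed length. The widest opened region spanned 377.9 kb of intergenic sequence, with Gm2516 as its nearest gene. Those that followed held the starts of Tspan13, a tetraspanin (242.7 kb), of Tuba3b, an alpha tubulin (241.9 kb), and of Hgf, hepatocyte growth factor (218.5 kb), or were centred on an intron of Cntnap5c, a contactin-associated adhesion protein (199.5 kb). All of these 5 were also in the OE experiment GFP and ZBT-OE lists. The widest closed regions were a 160.7 kb region on chromosome 1 whose nearest gene, Pcmtd1, starts 986.9 kb away, a 128.7 kb region near Scgb1b24, a second region near Pcmtd1 (60.4 kb), one near Nbea (54.6 kb) and one near 1700010N08Rik (51.7 kb). The first of these also had the highest fold enrichment of any closed region, 3.27. It was followed by regions near 9230019H11Rik (2.64), Kdm4a (2.48), 4931420L22Rik (2.41), Gm1979 (2.39), Phf3 (2.38), Sntg1, a syntrophin (2.36), Crem (2.23), Gmnc, a regulator of multiciliated cells (2.14), and the pheromone receptor gene Vmn1r82 (2.14).

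**Figure D1:**
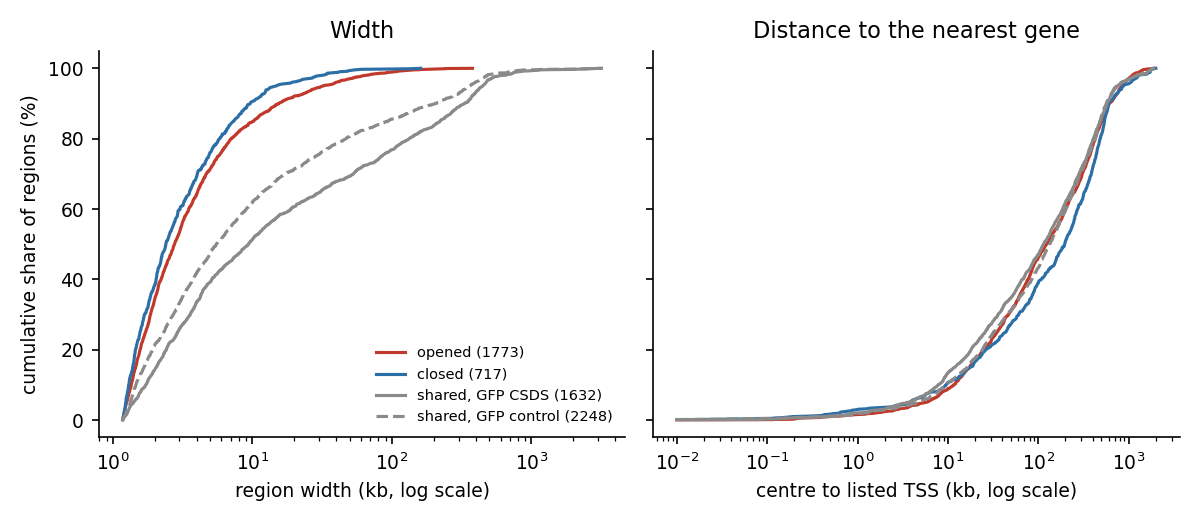
Cumulative share of regions (%) against region width (left, kb, log scale) and against the distance from the lead peak's centre to the listed transcription start site (right, kb, log scale), for opened, closed and shared regions, with the number of regions in the key. Opened and closed regions are narrower than shared ones, and closed regions lie farthest from genes, with a median of 196.0 kb against 124.1 kb for opened regions.

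Most opened and closed regions lay far from genes. Of the opened regions 77.3% (75.3 to 79.2) were annotated as intergenic and 20.4% (18.6 to 22.3) as intronic, and of the closed regions 85.1% (82.3 to 87.5) were intergenic and 11.4% (9.31 to 14) intronic. The intervals of the 2 classes did not overlap for either share. Shared regions were 79.2% intergenic in both lists. The median distance from the centre of the lead peak (the one with the highest fold enrichment in a merged region) to the listed transcription start site (TSS) was 124.1 kb (107.6 to 139.5) for opened and 196.0 kb (159.7 to 227.0) for closed regions. Within 10 kb of a TSS lay 8.86% (7.62 to 10.3) of opened and 10.6% (8.55 to 13.1) of closed regions. The classes differed most clearly between 10 and 100 kb, with 37.4% (35.2 to 39.7) of opened and 28.3% (25.1 to 31.7) of closed regions, while their intervals overlapped beyond that range. These differences in distance and in annotation kept their direction under every alternative setting run for them, but the interval of the difference in distance included 0 at the scale of the coarsest knockdown list (−136.1 to 16.1 kb), and that of the intergenic share did with the upper 50% of each list (−9 to 0.0911 points).

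Promoters were rare in both classes, with 11 opened regions (0.62%, 0.347 to 1.11) and 6 closed regions (0.837%, 0.384 to 1.81). They were also rare among shared regions, at 0.98% (0.604 to 1.59) in GFP CSDS and 1.02% (0.683 to 1.53) in GFP control. Among the opened ones were Pafah1b1, which encodes the dynein regulator LIS1 (fold enrichment 2.32), Ankmy2 (1.88), Nkain2, a partner of the sodium pump (1.85), Gm10825 (1.76), Fyb2 (1.64), Ipw (1.64), Hhla1 (1.62), Ifna15, a type I interferon (1.62), Pou5f1-rs5 (1.58) and the sensory receptor Mrgpra1 (1.56). The closed ones were Tigd2 (2.09), Gm15501 (1.85), the zinc finger gene Zfp330 (1.79), Gm4224 (1.69), Speer4a (1.59) and Trim2, a ubiquitin ligase (1.52). Narrow GFP control regions lay under the Pafah1b1 region (fold enrichment 2.12 over 1147 bp), the Ankmy2 region (1.79 over 688 bp) and the Hhla1 region (1.63 over 941 bp).

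The promoters found inside these regions were of unlike sequence, as the next 4 show. They run from 250 bases before to 50 after the start in RefSeq (GRCm38.p6), each lies wholly inside its region, and capitals mark CG dinucleotides. Nkain2 (chr10:32889866-32890165, minus strand) held 43 CG and Pafah1b1 (chr11:74723809-74724108, minus strand) held 27, numbers that 2.61% and 15.5% of all 32851 promoters reach, whereas Ifna15 (chr4:88558196-88558495, minus strand) held none. The closed Zfp330 promoter (chr8:82774096-82774395, minus strand) held 15, which 34.6% of promoters reach. The median over all promoters was 7 CG.
Nkain2, opened: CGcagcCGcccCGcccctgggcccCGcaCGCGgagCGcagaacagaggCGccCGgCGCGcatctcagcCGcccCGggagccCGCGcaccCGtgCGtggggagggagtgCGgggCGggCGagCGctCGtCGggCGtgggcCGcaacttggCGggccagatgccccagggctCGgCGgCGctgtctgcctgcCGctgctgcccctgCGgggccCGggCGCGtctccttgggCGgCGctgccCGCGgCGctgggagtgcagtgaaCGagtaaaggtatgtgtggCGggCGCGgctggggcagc
Pafah1b1, opened: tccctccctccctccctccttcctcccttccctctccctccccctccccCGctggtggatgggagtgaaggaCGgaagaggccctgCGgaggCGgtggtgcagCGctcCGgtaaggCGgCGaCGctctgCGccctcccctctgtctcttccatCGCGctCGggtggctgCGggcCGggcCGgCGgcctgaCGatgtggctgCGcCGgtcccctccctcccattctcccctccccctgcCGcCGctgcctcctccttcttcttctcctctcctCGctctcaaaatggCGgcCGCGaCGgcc
Ifna15, opened: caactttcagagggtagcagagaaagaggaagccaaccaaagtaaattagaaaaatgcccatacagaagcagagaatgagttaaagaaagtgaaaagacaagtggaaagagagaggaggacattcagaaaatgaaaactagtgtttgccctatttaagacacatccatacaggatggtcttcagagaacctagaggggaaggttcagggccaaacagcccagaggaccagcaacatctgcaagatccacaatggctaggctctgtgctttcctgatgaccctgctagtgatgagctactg
Zfp330, closed: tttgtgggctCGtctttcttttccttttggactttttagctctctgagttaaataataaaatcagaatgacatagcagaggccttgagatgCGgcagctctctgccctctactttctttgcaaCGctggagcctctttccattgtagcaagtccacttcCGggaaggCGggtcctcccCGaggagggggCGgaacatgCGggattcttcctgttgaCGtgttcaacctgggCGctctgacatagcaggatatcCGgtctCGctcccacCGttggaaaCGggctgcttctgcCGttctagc

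Counted by position in the GENCODE annotation, opened regions held the TSSs of 72 protein-coding genes in 58 regions (4.94 per Mb), and closed regions held 27 in 23 regions (7.39 per Mb), against 8.45 per Mb of chromosomes 1 to 19. As shares of regions the classes were alike, at 3.27% of opened and 3.21% of closed regions. Among shared regions 16.4% in GFP CSDS and 11.9% in GFP control held a coding TSS. These were far wider, with mean widths of 94658.7 and 62583.6 bp against 8223.8 bp for opened and 5093.2 bp for closed regions. Per Mb, the shared GFP CSDS regions held 6.77 coding TSSs, between the values of the opened and closed regions. Some type I interferon genes had their TSS in an opened region, at a locus chosen after its values were seen. These antiviral cytokines lie in one cluster on chromosome 4, where 21 opened regions and 6 shared GFP CSDS regions were found between positions 88400356 and 88615524. Another 6 shared regions were listed there for GFP control. Over all GFP CSDS regions 52.1% were opened, and the 21 are neighbours and not separate observations. Their fold enrichments ran from 1.57 to 1.95 with a median of 1.64, the same as the median of all opened regions. The TSSs of Ifnb1 (fold enrichment 1.62), Ifna15 (1.62), Ifna9 (1.72) and Ifna12 (1.69) each lay in an opened region. The Ifnb1 region also overlapped a narrow GFP control region, of 975 bp. In the lists that the rule did not use, 18 of the 21 opened regions of this cluster were in Zbt-KD control, 18 in Zbt-KD CSDS, and 21 in each of the OE experiment lists. The interferon-induced genes Ifi44 and Ifi44l had their TSSs in one opened region of 91.9 kb (fold enrichment 2.15) that was present in all 4 other lists.

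Other opened regions that held a TSS included those of Twist1, a transcription factor of the mesenchyme (1.66), Dner, a neuronal Notch ligand (1.85), Tacr3, the neurokinin B receptor (2.15), and Ptgfr, the prostaglandin F receptor (1.91). The region at Twist1 was in the OE experiment GFP list and in none of the other 3. Closed regions held the TSSs of Kdm4a, a histone H3 demethylase (2.48), Phf3, a PHD finger protein (2.38), Crem, a transcription factor of the cAMP response (2.23), Slc6a15, a neutral amino acid transporter (1.86), Nbea, which acts in membrane traffic to synapses (1.82), and Lrrn1, a neuronal leucine-rich repeat protein (1.81). Those at Kdm4a, Phf3 and Crem were each present in Zbt-KD CSDS, OE experiment GFP and ZBT-OE and absent from Zbt-KD control. The region at the Nbea TSS had a GC content of 74.5% and was in none of the 4 other lists.

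Lists of genes with known roles in astrocytes and in stress were read against the few genes that these regions reach at all, since opened regions held 0.346% and closed regions 0.13% of the 20807 coding TSSs of chromosomes 1 to 19. Counts near 0 in short lists are therefore no result about those genes. None of the 10 astrocyte markers, of the 20 astrocyte homeostasis genes, of the 20 glucocorticoid and immediate stress response genes (19 in the annotation) or of the 20 NF-kB and inflammatory genes examined had a gene body or TSS in an opened or closed region. None of the astrocyte marker genes was in a shared region either, and the nearest GFP CSDS region lay at a median of 2.14 Mb from them, so the labelled cell type could not be checked against these lists. The same held for the 10 neuron and 10 oligodendrocyte markers, of which 9 oligodendrocyte genes were in the annotation. Of the 10 microglia markers, none had a gene body in an opened, closed or shared region. Only 1 of them, the receptor P2ry12, was the nearest gene of any region, a closed one. The exception was Abcb1a, which encodes the P-glycoprotein pump of brain endothelium. It held 6 opened regions with fold enrichments of 1.52, 1.58, 2.52, 1.73, 1.74 and 1.68, and its TSS lay in none of them. It was 1 of 10 endothelial markers, and the part of endothelial cells in this was not tested.

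Opened regions were spread unevenly over chromosomes, and their ratio to closed regions ran from 1.2 to 5.32. Chromosome 6 held 197 opened and 37 closed regions (5.32 opened for each closed), chromosome 4 held 190 and 42 (4.52), chromosome 1 held 133 and 111 (1.2), and chromosome 2 held 92 and 69 (1.33). Measured against the regions of the same chromosome, the opened share ran from 40.4% (32.6 to 48.8) on chromosome 8 to 61.8% (54 to 69) on chromosome 14, around the 52.1% of all. The closed share varied more, from 11.3% (8.35 to 15.3) on chromosome 6 to 45.7% (38 to 53.6) on chromosome 2, around the 24.2% of all. Opened regions per Mb were highest on chromosome 6 (1.32) and lowest on chromosome 19 (0.293).

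**Figure D2:**
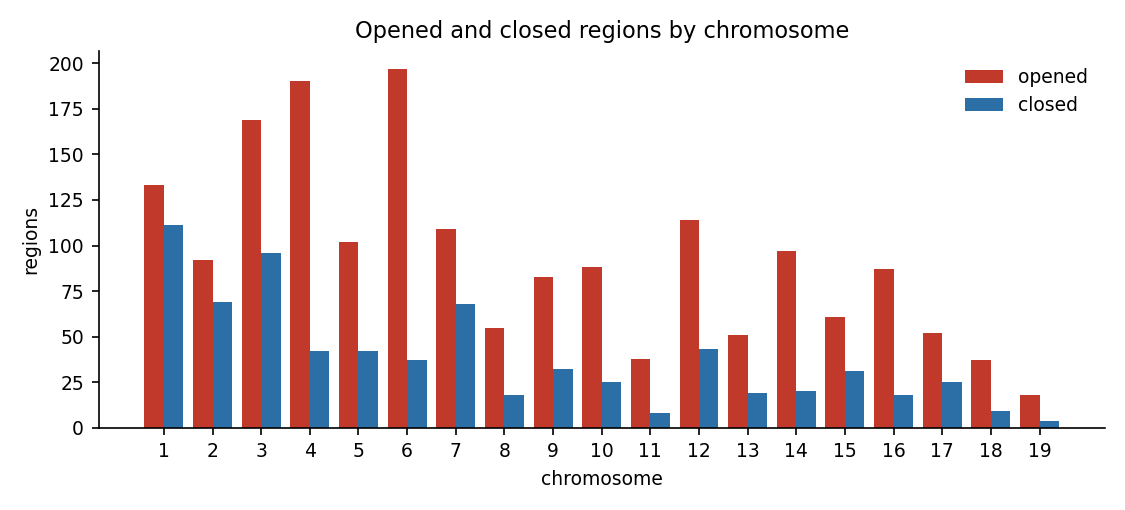
Number of opened and closed regions (vertical axis, counts) on each of chromosomes 1 to 19. Chromosomes 6 and 4 hold the most opened regions, 197 and 190, and chromosome 1 the most closed regions, 111.

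Opened and closed regions often lay in runs of neighbours. A run was counted as consecutive regions of one list, in chromosome order, that were all opened or all closed. Runs of 5 or more held 1274 of the opened regions (71.9%) in 120 runs, and 312 of the closed regions (43.5%) in 33 runs. Long runs arise more easily for a class that makes up more of its list. Opened regions made up 52.1% of the GFP CSDS regions, and closed regions 24.2% of the GFP control regions. The shares in runs therefore do not show which class was more clustered, and a random order of regions was not tested. In all, 471 genes were nearest to an opened region and 252 to a closed region. Genes on both sides numbered 78, which is 16.6% of the former and 31% of the latter.

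The gene nearest to most opened regions was Cntnap5a, an adhesion protein of the neurexin superfamily, with 34 opened, 2 closed and 20 shared GFP CSDS regions. Of its opened regions 23 formed one run over 0.223 Mb of chromosome 1. Over all 34, distances to the listed TSS ran from 905.9 to 1864.6 kb and fold enrichments from 1.54 to 1.9. Tcerg1l followed with 30 regions over 0.314 Mb of chromosome 7. All 30 of the GFP CSDS regions nearest to Tcerg1l were opened, at fold enrichments between 1.5 and 1.76, and no GFP control region lay there. Map3k7, the kinase TAK1 of the NF-kB pathway, was nearest to 24 opened regions at 193.3 to 407.7 kb from its TSS. Egfem1 was nearest to 22, and Pou5f1-rs5, a sequence related to Oct4, to 21, the latter including its promoter.

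These clusters differed in how they appeared in the lists that the rule did not use. The 21 regions near Pou5f1-rs5 were all in Zbt-KD control, in OE experiment GFP and in ZBT-OE, and none was in Zbt-KD CSDS. The 24 near Map3k7 were all in both OE experiment lists, 8 were in Zbt-KD CSDS and none was in Zbt-KD control. Near Tcerg1l, 26 of 30 were in Zbt-KD control, 11 in Zbt-KD CSDS and 30 in each OE experiment list. Near Cntnap5a, 32 of 34 were in Zbt-KD CSDS and 15 in Zbt-KD control. Near Egfem1, 2 of 22 were in ZBT-OE and none was in the other 3, which left GFP CSDS as nearly the sole list with these regions.

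Closed regions were most often nearest to Pcmtd1, a gene of the protein isoaspartate methyltransferase family, with 22 regions over 0.669 Mb of chromosome 1 at fold enrichments from 1.61 to 3.27. No GFP CSDS region was nearest to this gene. Of the 22 regions, 8 were in Zbt-KD control, 1 in OE experiment GFP and none in Zbt-KD CSDS or ZBT-OE. Cntn5, contactin 5, a neuronal adhesion protein, had 17 closed and 11 opened regions. Mir6379 had 17 closed regions of which 4 were in OE experiment GFP, 2 in Zbt-KD CSDS and none in the other 2. Mir6342 had 16 closed regions, all of them in OE experiment GFP, 15 in ZBT-OE, 11 in Zbt-KD control and 8 in Zbt-KD CSDS. Shared regions also lay nearest to both microRNA genes. They numbered 15 in GFP CSDS and 3 in GFP control for Mir6379, and 16 and 15 for Mir6342. Adgra3, an adhesion receptor, had 12 closed regions, of which 11 and 12 were in the OE experiment lists and none in the Zbt-KD lists.

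**Figure D3:**
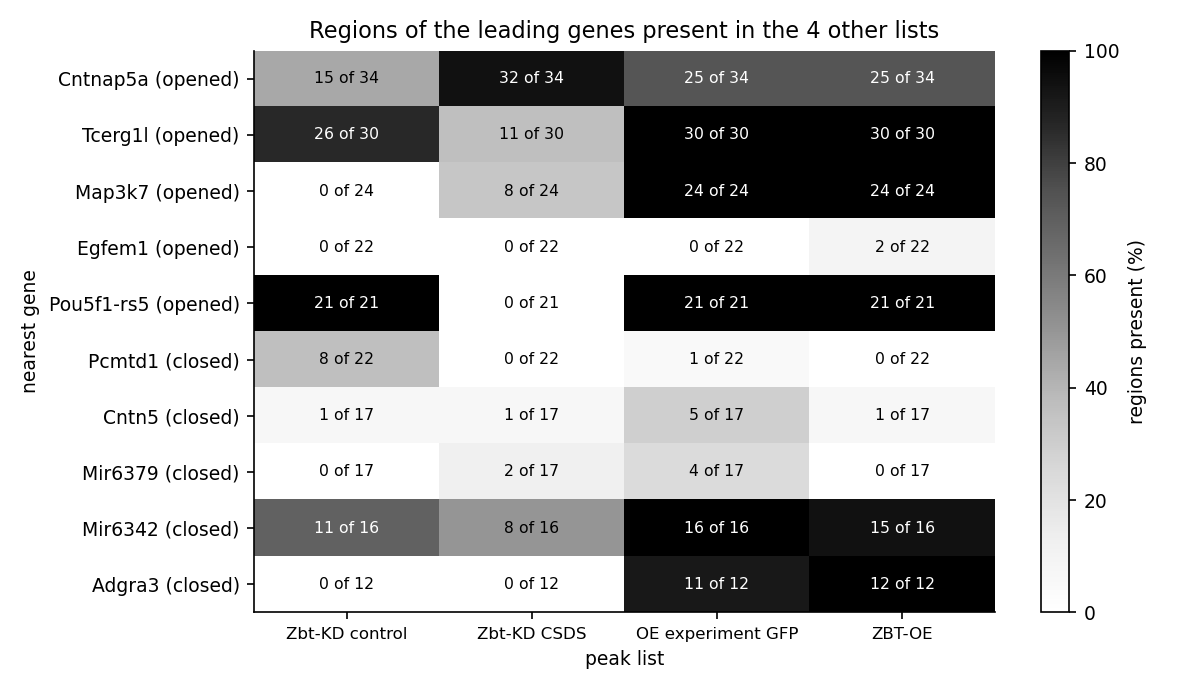
Number and share (%, grey scale) of the regions nearest to each of the 5 leading opened genes and 5 leading closed genes (rows) that were present in each of the 4 other peak lists (columns). The 21 regions near Pou5f1-rs5 are in every list except Zbt-KD CSDS, and the 22 near Pcmtd1 are in neither Zbt-KD CSDS nor ZBT-OE.

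Over all members, presence in the other lists was intermediate. A region counted as present when at least 1 bp of it lay in a peak of the other list as deposited. Of the opened regions 42.3% (40 to 44.6) were present in Zbt-KD control and 42.3% (40 to 44.6) in Zbt-KD CSDS, and of the closed regions 45.7% (42.1 to 49.4) and 40.6% (37.1 to 44.2). The OE experiment lists held more of them, with 72.3% (70.1 to 74.3) of opened and 54.1% (50.5 to 57.7) of closed regions in OE experiment GFP, and 67.1% (64.9 to 69.3) and 48.5% (44.9 to 52.2) in ZBT-OE. Shared regions were present at 81.6% to 90.2% in each of the 4. The 4 lists cover 6.99% to 9.16% of chromosomes 1 to 19 in wide peaks, with median widths from 32946.5 to 73104 bp, and the 1281 opened regions found in OE experiment GFP lay in 324 of its peaks. Opened regions were thus more often present than closed ones in the OE experiment lists, by 18.1 percentage points (13.9 to 22.3) in OE experiment GFP and 18.6 (14.3 to 22.8) in ZBT-OE. In the Zbt-KD lists the differences were −3.44 points (−7.76 to 0.846) for Zbt-KD control and 1.72 points (−2.58 to 5.94) for Zbt-KD CSDS, and both intervals include 0. Under other settings they did not always do so. The interval for Zbt-KD control lay below 0 with the lists as deposited (−8.31 to −1.48), with the upper 50% of each list (−12.5 to −1.06) and with at least 50% of the region required (−9.7 to −1.16). That for Zbt-KD CSDS lay above 0 when regions within 10 kb counted as shared (0.751 to 10.1) and at the scale of the coarsest knockdown list (6.63 to 24.4).

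**Figure D4:**
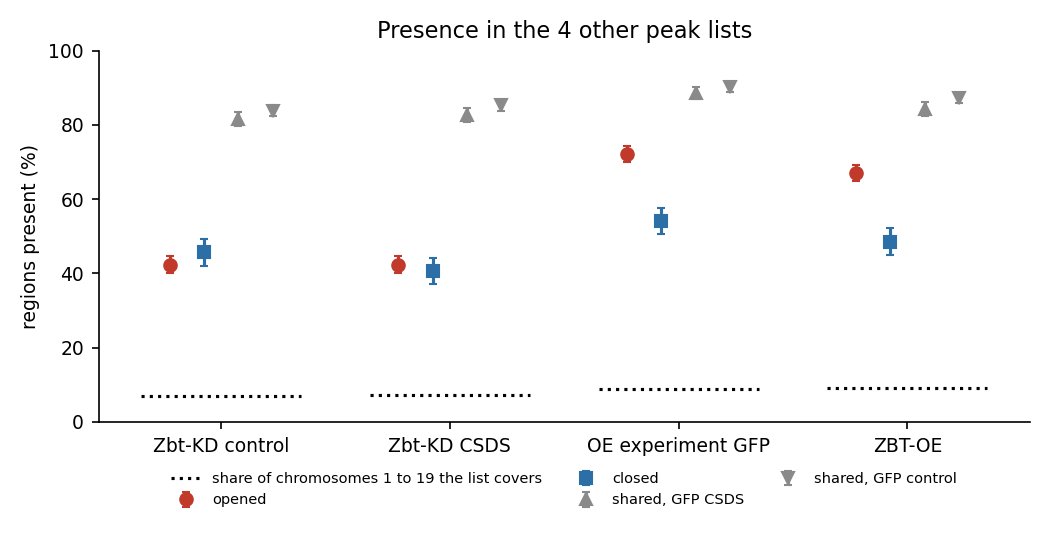
Share of opened, closed and shared regions (%) present in each of the 4 other peak lists, with 95% Wilson intervals over regions as bars, and the share of chromosomes 1 to 19 that each list covers as dotted lines. Opened regions are found more often than closed ones in the OE experiment lists, 72.3% against 54.1% for OE experiment GFP. In the Zbt-KD lists the shares are 42.3% against 45.7% for Zbt-KD control and 42.3% against 40.6% for Zbt-KD CSDS.

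The Zbt-KD lists form a second comparison of CSDS with no stress that shares no samples with the first. Of the opened regions, 300 were in Zbt-KD CSDS only, 300 in Zbt-KD control only, 450 in both and 723 in neither. The number found only under stress was therefore the same as the number found only without it. Of the closed regions, 110 were in Zbt-KD CSDS only, 147 in Zbt-KD control only, 181 in both and 279 in neither. Comparing the Zbt-KD lists with each other by the same rule, at their own scale, gave 327 opened regions (27.6% of 1183) and 308 closed regions (24% of 1283). Of the regions opened in GFP mice, 159 (8.97%) overlapped a region opened in Zbt-KD mice and 205 (11.6%) one that closed, and of those closed in GFP mice 52 (7.25%) overlapped one that opened and 82 (11.4%) one that closed. Over all GFP CSDS regions these shares were 6.84% and 8.37%, and over all GFP control regions 4.65% and 5.03%. Seen from the other side, 108 of the 327 regions that opened in Zbt-KD mice (33%) overlapped a region opened in GFP mice. Of the 308 that closed, 96 (31.2%) did. Among all peaks of these lists, 324 of 1184 in Zbt-KD CSDS and 328 of 1302 in Zbt-KD control overlapped such a region. A region closed in GFP mice was overlapped by 29 of the 327 that opened (8.87%) and by 38 of the 308 that closed (12.3%). Among all peaks, 147 of 1184 in Zbt-KD CSDS and 147 of 1302 in Zbt-KD control overlapped one. Across all 4 other lists, 201 opened and 141 closed regions were in none, and 325 and 111 were in every one.

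Gene families, sorted by symbol, differed in how much of their surroundings was opened. Among regions nearest to olfactory receptors, the odorant receptors of the nose, 33 of 95 were opened (34.7%, 25.9 to 44.7), and among those nearest to vomeronasal receptors, which detect pheromones, 26 of 81 (32.1%, 22.9 to 42.9). The zinc finger genes had 26 of 74 (35.1%, 25.2 to 46.5), the solute carriers 12 of 42 (28.6%, 17.2 to 43.6) and the neurotransmitter receptors 4 of 28 (14.3%, 5.7 to 31.5). These 5 intervals lie below the 52.1% of all GFP CSDS regions. The interval of the cadherins and protocadherins, calcium-dependent adhesion proteins, lay above it, at 30 of 43 (69.8%, 54.9 to 81.4). Of those 30 regions, 17 were nearest to Fat3, 7 to Cdh7, 5 to Pcdh18 and 1 to Cdh12. The regions near Fat3 are neighbours on chromosome 9 and not separate observations, and without this gene the family had 13 of 25 opened (52%, 33.5 to 70), close to the share of all regions.

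The remaining families had intervals that include the share of all regions. Synaptic adhesion proteins had 67 of 119 opened (56.3%), with Cntnap5a giving 34 and Cntn5 giving 11. Ion channels had 19 of 28 (67.9%, 49.3 to 82.1), of which 16 were nearest to Kcnj3, a subunit of G protein-gated potassium channels. Without this gene 3 of 8 were opened (37.5%, 13.7 to 69.4). None of the 15 GFP control regions nearest to an ion channel was closed, which allows a share of up to 20% (3 counts of 15), and 10 of these 15 were nearest to Kcnj3. Immune gene families had 27 of 49 (55.1%), among them Klra2 with 5, Ifnb1 with 4 and Ifna15 and Ifna9 with 3 each, and extracellular matrix genes had 13 of 22 (59.1%), with 5 each near the collagen gene Col8a1 and the hyaluronan synthase Has2. Among closed regions, the snoRNA, snRNA and microRNA genes had 51 of 134 (38.1%, 30.3 to 46.5), whose interval lies above the 24.2% of all GFP control regions. All of these were microRNA genes, and 3 of them, Mir6379 with 17, Mir6342 with 16 and Mir7094-2 with 11, gave most of the 51 regions, which lie side by side and are not separate observations. Without Mir6379 the count was 34 of 114 (29.8%, 22.2 to 38.8), an interval that includes 24.2%. Olfactory receptors had 34 of 108 closed (31.5%, 23.5 to 40.7) and immune families 10 of 53 (18.9%, 10.6 to 31.4). Of the latter 10, 5 were nearest to Klra1. Without this gene 5 of 48 were closed (10.4%, 4.53 to 22.2). Every GFP control region nearest to Klra1 was closed, so leaving this gene out could only lower the share. The lower value is therefore no result about the family, whose full interval includes 24.2%.

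**Figure D5:**
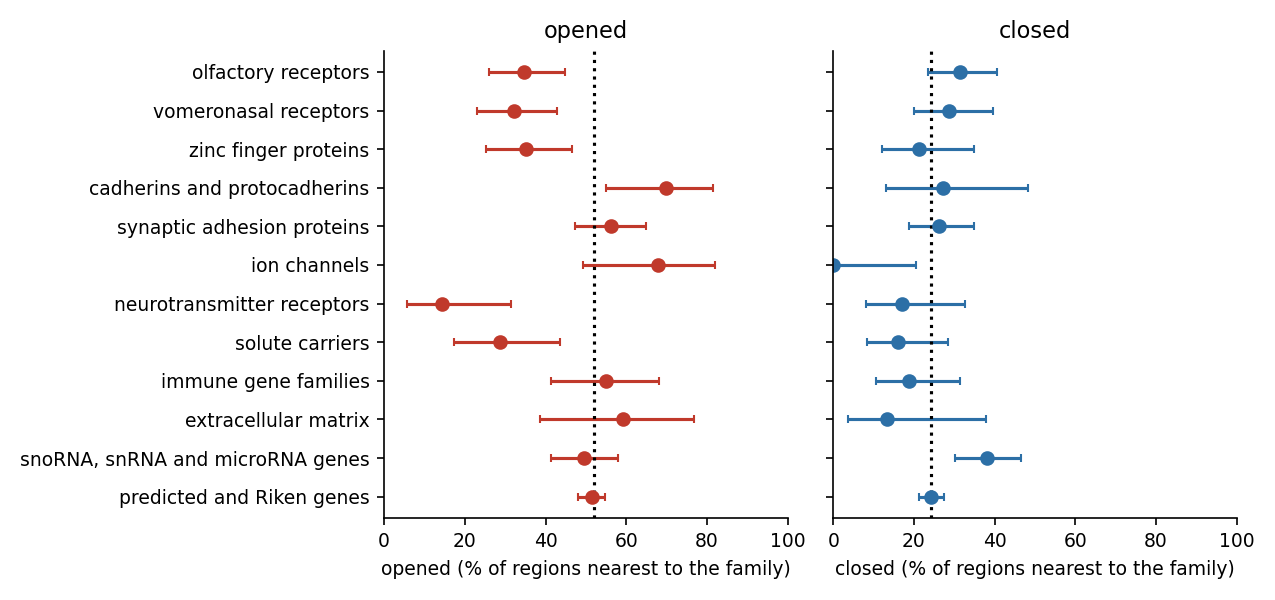
Share of GFP CSDS regions opened (left, %) and of GFP control regions closed (right, %) among the regions nearest to the genes of each family, with 95% Wilson intervals over regions as bars. Dotted lines mark the shares over all regions, 52.1% and 24.2%. Cadherins lie above the line on the left at 69.8% but at 52% when regions nearest to Fat3 are left out, and neurotransmitter receptors lie lowest at 14.3%.

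In sequence, opened regions held fewer repeats than closed and shared ones. The median repeat-masked share was 35.9% (34.5 to 37.3) for opened regions, 41.5% (38.9 to 43.9) for closed regions, and 44.2% and 41.8% for the shared regions of GFP CSDS and GFP control, against 33.5% of chromosomes 1 to 19. A LINE element lay at the centre of the lead peak in 27% (24.9 to 29.1) of opened and 34.9% (31.5 to 38.4) of closed regions, while LTR elements were as frequent in both, at 17.8% (16.1 to 19.6) and 17.4% (14.8 to 20.4). The median GC content was 42% (41.7 to 42.2) in opened and 41.9% (41.5 to 42.4) in closed regions, above the 40.8% and 40.9% of the shared regions. Of 31-base words sampled from the regions, 23.6% in opened, 25.7% in closed, and 33.2% and 28.5% in shared regions had further copies in the genome, as did 15.5% of words from chromosomes 1 to 19. Both classes were thus richer in repeated sequence than the genome, and opened regions less so than the regions both groups had in common.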

How the data were processed

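ATAC-seq of OFC astrocytes gave 1 deposited peak list per group. These are MACS calls passed through an FDR filter and annotated with the closest gene, made by the authors from HISAT2 alignments to mm10. Duplicate and ambiguously placed reads did not contribute, so repeats were measured only where a read could be placed uniquely. Whether samples were merged before or after peak calling is not given in the sources used here. The fold enrichment in the deposited lists is the authors' ratio of signal to background, and the q-value is the authors' FDR within a list. Distances to the TSS in bp and annotations were used as deposited. Depth per sample is unknown, so precision is given only as Wilson intervals of shares and order-statistic intervals of medians, at 95%.

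Lists were compared with Python 3.11.15, numpy 2.4.6, pandas 2.3.3 and scipy 1.17.1, and starts were read as counted from 1. Regions were merged across gaps of up to 1177 bp, kept from 1174 bp, and matched by 1 bp. Each merged region took the annotation of its peak with the highest fold enrichment. Sequence was read from GRCm38.p6, genes from GENCODE M21, promoters from RefSeq. Repeated words of 31 bases were counted at 20 positions per region with numba 0.67.0, and stretches were aligned with Biopython 1.88. The comparison was tested on simulated lists. No test was run, because each group has 1 list.

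The members, gene lists and families were chosen with earlier results of these data known. Genes named were, for each class, the 10 regions with the highest fold enrichment, the 5 widest, the regions annotated to a promoter (at most 10), the 5 genes nearest to most regions, and listed genes overlapped by a region. Genes named for a TSS inside a region, family members and loci were chosen after their values were seen.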

Additional observations from a re-analysis of the deposited data

Results flagged for a closer look

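The sex chromosomes stand outside the comparison of chromosomes 1 to 19, and they carried regions of both classes. Chromosome X held 249 opened regions (49.3% of 505 GFP CSDS regions) and 65 closed regions (17.9% of 364 GFP control regions). Chromosome Y held 11 opened regions (8.27% of 133) and 19 closed regions (21.8% of 87), so that closed regions outnumbered opened ones there, unlike on any of chromosomes 1 to 19. No test was run on these values.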

How the results depend on the processing

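Results were recomputed under 8 alternative ways of comparing the lists, with 1 more each for annotation, distance and presence, and with 1 more for opened regions that was chosen after seeing the data, 87 values in all, of which 69 stayed within 1.5 times the count or inside the 95% interval. No paired analysis was possible because each group has 1 list and replicate numbers do not appear in it, and for the same reason no replicate could be left out. At the scale of the coarsest of the 4 knockdown lists (gaps of 6475 bp, widths from 6507 bp), opened regions numbered 351 and closed regions 172, the share difference fell to 16.2 points, the width difference was 9223.5 bp and the presence difference in Zbt-KD CSDS was 15.7 points. With the upper 50% of each list by fold enrichment, opened regions numbered 682, the share difference was 15.1 points, the width difference 2831.5 bp and that in Zbt-KD CSDS −0.674 points, the opposite sign. With the lists as deposited, closed regions numbered 1580, the share difference was 19 points, the width difference 1320.5 bp and that in Zbt-KD CSDS −0.347 points, again reversed. With the 3410 strongest peaks of each list, closed regions numbered 472, the share difference was 35.3 points and the width difference −106 bp, reversed. Counting regions within 10 kb as shared raised the presence differences to 23.7 points in OE experiment GFP and 23.6 in ZBT-OE. Counting narrow GFP control regions as overlap left 1639 opened regions. Gene families were also recomputed, by a choice made after seeing the data, without the gene nearest to most of their opened or closed regions. This brought the cadherins to 52% opened and the ion channels to 37.5% opened. Closed shares came to 29.8% for the microRNA genes and 10.4% for immune families. They fell from 26.1% to 13.5% for synaptic adhesion proteins and from 17.1% to 7.41% for neurotransmitter receptors. Because the gene left out was picked for its count of such regions, lower shares were favoured in advance. They show how far a family rested on 1 gene and nothing more. The share difference, distance, intergenic share and presence in the OE experiment lists and in Zbt-KD control kept their direction in all alternatives run for them. The cause of these shifts was not tested. Depth is unknown, so a region missing from a list may have been too weakly covered to be called.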

Other observations

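Further runs of neighbouring regions showed the same variety between lists. A run of 26 opened regions over 0.423 Mb of chromosome 10, most often nearest to E2f7, a cell cycle transcription factor, had 25 regions in OE experiment GFP and 25 in ZBT-OE, with 7 in Zbt-KD CSDS and none in Zbt-KD control. A run of 24 opened regions on chromosome 4 was spread over 11.2 Mb, but 19 of them, all nearest to Caap1, lay within 0.153 Mb. All 24 were in both OE experiment lists, 1 was in Zbt-KD control and none in Zbt-KD CSDS. Among closed runs, 16 regions over 0.209 Mb of chromosome 3, mostly nearest to Trim2, were present in Zbt-KD control (16), ZBT-OE (16) and OE experiment GFP (15) and 7 of them were in Zbt-KD CSDS. A run of 11 closed regions near B3galt2, a galactosyltransferase, was in Zbt-KD CSDS in full and in OE experiment GFP not at all. A run of 11 near Lrfn5, a synaptic adhesion protein, had 2 regions in Zbt-KD CSDS and none in the other 3 lists. None of these differences was tested.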
